A study of Mus musculus with 6 samples.

Results

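PML nuclear bodies are spherical structures of the cell nucleus built around the PML protein, and the genes described here encode their scaffold, the ATRX-DAXX histone chaperone found in them, members of the SUMO modification pathway that holds them together, and coilin, the scaffold of a second nuclear structure, the Cajal body. The set holds 8 listed genes, Pml, Daxx, Atrx, Sumo2, Sumo3, Pias1, Senp1 and Coil, which were matched by symbol to the table of UMI counts. Of these 8 genes, 7 were in the table of 10520 genes, and Sumo2 is not analysed here. All 7 were among the 8969 genes that passed a filter on low counts, but Atrx passed it only through the shLmna libraries, in which it was high. The genes were chosen by their biology with their fold changes between shLmna and shControl already known, so their values in that comparison are given as a description and no p-value is given for them.

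The samples were 6 MARS-seq libraries of E0771 cells, a mouse breast adenocarcinoma line of the C57BL/6 strain. All cells had been transduced with a lentivirus and selected with puromycin. The 3 shControl libraries came from cells carrying the empty shRNA vector. The 3 shLmna libraries came from cells stably carrying an shRNA against lamin A/C, the intermediate filament proteins of the nuclear lamina encoded by Lmna. The titles of all 3 shLmna libraries read shRNA4, and which of the study's constructs this is was not found in the sources used. Effects of this construct or cell line and of lowered lamin A/C cannot be told apart here. The study lowered lamin A/C to make nuclei softer, and the comparison here asks how transcripts of nuclear body components differed between these cells. The labels do not say that replicates came from separate cultures, so the spread between libraries may be technical. MARS-seq reads the 3′ end of polyadenylated RNA and puts a molecular barcode (UMI) on every captured molecule, so that amplified copies are counted once. Levels are given as UMIs, or as CPM, UMIs scaled to 1000000 per library with factors from the trimmed mean of M-values (TMM), and every log2 fold change is shLmna over shControl.

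PML recruits its many partner proteins largely through SUMO, a small protein that is attached to lysines of other proteins with the help of E3 ligases such as PIAS1, and is removed by SENP proteases. DAXX binds SUMO, is drawn into PML bodies, and forms with the chromatin remodeller ATRX a chaperone that places the histone variant H3.3 at telomeres, pericentromeric repeats and other silent chromatin. Cajal bodies are sites where small nuclear ribonucleoproteins mature, and coilin, encoded by Coil, is their marker protein.

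The libraries held 1846208 to 3242051 UMIs. Lmna had 2066, 2794 and 1764 UMIs in shControl and 1035, 1023 and 713 in shLmna, with a log2 fold change of -1.20 (SE 0.13, adjusted p = 3.5e-05, edgeR quasi-likelihood, Benjamini-Hochberg). The summed level of the 3 mammary epithelial markers in the table, of 6 listed, was 265 to 320 CPM in shControl and 282 to 313 CPM in shLmna, nearly all of it from Krt8. Epcam, which encodes an epithelial adhesion protein, had 13.3 to 14.4 CPM in shControl and 4.25 to 11.7 CPM in shLmna, so its groups did not overlap (log2 fold change -0.90, 95% interval -1.62 to -0.18), and Cdh1 and Krt19 are not analysed here. The 4 fibroblast markers in the table, of 6 listed, summed to 18.6 to 18.8 CPM in shControl and 27.2 to 30.8 CPM in shLmna. Most of this difference came from Pdgfrb, with means of 11.0 CPM in shControl and 18.7 CPM in shLmna, which was called higher. Pdgfra had means of 5.15 and 5.35 CPM, and the groups of Pdgfra, Col1a1 and Col1a2 overlapped. Leukocyte and endothelial markers in the table were 1 of 5 and 1 of 4, with Cd68 at 5.32 to 13.3 CPM and Pecam1 at 0.625 to 3.18 CPM. Their part in the results below was not tested. On the plate, shControl occupied positions 13 to 15 and shLmna positions 16 to 18, and the effects of position and knockdown cannot be told apart.

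Of the 7 measured genes, Atrx alone stood far apart between the groups, with 1 or 2 UMIs in each shControl library and 41 to 70 in each shLmna library. Coil, Daxx and Sumo3 were lower in every shLmna library than in any shControl library, by 28.7%, 22.5% and 6.99% of the shControl mean. Pml, Pias1 and Senp1 had overlapping groups. Atrx was the only gene of the set called at an adjusted p under 0.05, and it was also called by the study's criteria, which add an absolute log2 fold change above 1 and a mean normalised count above 5. Over all 8969 tested genes, 7.96% were called higher and 5.78% lower at the adjusted p alone, and 3.97% and 1.74% by the study's criteria. A gene whose groups did not overlap was common, at 16.8% of tested genes with shLmna above and 15.7% with shLmna below. Since the genes were selected with this comparison known, nothing is read from the number of them that were called or did not overlap.

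**Figure D1:**
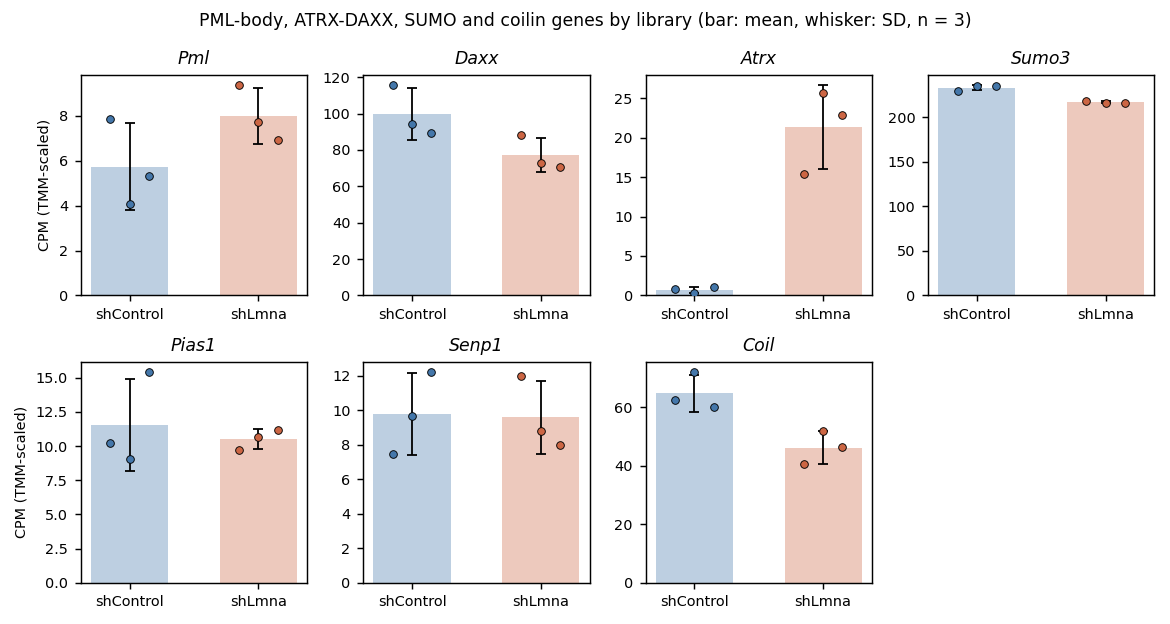
Level in CPM (TMM-scaled, vertical axes starting at 0 and differing between panels) of the 7 measured genes in the 3 shControl (blue) and 3 shLmna (orange) libraries, with points for libraries, bars for means and whiskers for SD. Atrx had 0.313 to 1.06 CPM in shControl and 15.4 to 25.7 CPM in shLmna, Coil, Daxx and Sumo3 sat lower in all 3 shLmna libraries, and the points of Pml, Pias1 and Senp1 overlapped.

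Pml encodes the scaffold protein of the bodies, a member of the TRIM family that multimerises into their shell. On GRCm38 it lies at 58218076-58249786 of chromosome 9, reverse strand, with 12 annotated transcripts. Pml had 20, 13 and 10 UMIs in the 3 shControl libraries, in replicate order, against 25, 21 and 13 in shLmna. The 3 shLmna libraries held 3 of the 4 highest scaled levels, and shControl replicate 1 fell among them. Mean levels were 5.74 ± 1.93 CPM (SD, n = 3) in shControl and 8.00 ± 1.25 CPM (SD, n = 3) in shLmna, with a log2 fold change of 0.50 (SE 0.34, 95% interval -0.22 to 1.23). It was 0.27 without shControl replicate 2 and 0.80 without shControl replicate 1, and was not called in either fit. With totals of 43 and 59 UMIs, a difference of this size was within counting error. The ratio of summed UMIs, divided by TMM-scaled library totals, was 1.44 with an exact 95% counting interval of 0.956 to 2.19.

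Daxx encodes the chaperone that binds the H3.3-H4 dimer and bridges it to ATRX and to SUMO-modified PML. It lies on the forward strand of chromosome 17 at 33909414-33915590. Daxx had 295, 302 and 168 UMIs in shControl and 235, 199 and 133 in shLmna, corresponding to 116, 94.4 and 89.1 CPM against 88.1, 73.1 and 70.7 CPM. The lowest shControl library and the highest shLmna library differed by 1.06 CPM, so the groups were separate by a narrow margin. The log2 fold change was -0.37 (SE 0.16, 95% interval -0.71 to -0.02), and Daxx was not called in the main comparison or in any of 14 alternatives.

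Atrx encodes the SWI/SNF-type helicase of the complex, which reads silent chromatin through its ADD domain, and it lies on the reverse strand of chromosome X at 105797615-105929403. Atrx had 2, 1 and 2 UMIs in the shControl libraries and 41, 70 and 43 UMIs in the shLmna libraries. Every shLmna library was far above every shControl library, and the shLmna libraries varied among themselves, with a coefficient of variation of 25.1% where counting alone gives 13.96%. The means were 0.719 ± 0.378 CPM (SD, n = 3) and 21.3 ± 5.34 CPM (SD, n = 3). Summed over libraries, 5 UMIs stood against 154, a ratio of 32.3 after dividing by TMM-scaled library totals, with an exact 95% counting interval of 13.6 to 101. The fitted log2 fold change was 4.91 (SE 0.44, 95% interval 3.96 to 5.86), a value that depends on the prior count because shControl held 1 or 2 UMIs. This SE was derived from the F statistic of the test. On the log2 scale the fitted interval is narrower than the counting interval, so it understates the error. DESeq2 gave 5.00 (SE 0.74). By fitted log2 fold change Atrx ranked 10 from the highest of 8969 genes, a rank that was known when it was chosen. Atrx was among 40 tested genes with 3 UMIs or fewer in every shControl library. All 40 were called higher, with a median log2 fold change of 4.035. In shLmna, 3 tested genes had 3 UMIs or fewer in every library. The width of the counting interval was set by the 5 shControl UMIs.

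The promoters of Atrx, Daxx and Coil are shown. Atrx was the gene that stood apart. Daxx and Coil were lower in all 3 shLmna libraries, by more than Sumo3, which was also lower in all 3. Each window, from RefSeq on build GRCm38.p6, runs 5′ to 3′ on the gene's own strand from 250 bases before to 50 bases after the annotated start, and capitals mark matches on either strand to the GC box (GGGCGG), the CCAAT box (CCAAT) and the TATA box (TATAAA), with overlapping matches running together.
Atrx, chrX:105929323-105929622, reverse strand: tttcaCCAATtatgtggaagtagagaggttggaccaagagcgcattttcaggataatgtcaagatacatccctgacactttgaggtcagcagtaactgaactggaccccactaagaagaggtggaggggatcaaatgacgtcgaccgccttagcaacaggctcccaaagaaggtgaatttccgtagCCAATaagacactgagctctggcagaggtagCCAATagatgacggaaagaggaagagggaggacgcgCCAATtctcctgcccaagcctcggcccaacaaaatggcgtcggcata
Daxx, chr17:33909195-33909494, forward strand, the first of 3 overlapping windows for alternative starts: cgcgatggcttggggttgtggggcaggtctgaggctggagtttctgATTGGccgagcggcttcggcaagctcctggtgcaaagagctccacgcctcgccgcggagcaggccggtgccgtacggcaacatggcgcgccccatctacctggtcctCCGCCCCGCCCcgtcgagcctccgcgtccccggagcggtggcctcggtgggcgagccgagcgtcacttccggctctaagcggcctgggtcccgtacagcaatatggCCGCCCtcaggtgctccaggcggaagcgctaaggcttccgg
Coil, chr11:88973685-88973984, forward strand: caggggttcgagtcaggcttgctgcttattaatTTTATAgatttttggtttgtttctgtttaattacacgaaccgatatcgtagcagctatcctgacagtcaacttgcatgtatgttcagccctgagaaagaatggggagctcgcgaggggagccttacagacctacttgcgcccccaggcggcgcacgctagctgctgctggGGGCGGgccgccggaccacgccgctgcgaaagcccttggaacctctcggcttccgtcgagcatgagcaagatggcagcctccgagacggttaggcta
The Atrx window held 4 CCAAT boxes and no GC box, at 50.3% GC with 11 CpG dinucleotides. Daxx had 1 CCAAT box and 3 GC boxes, some sharing bases, at 69.7% GC with 33 CpG. Coil had 1 GC box and 1 TATA box at 55.7% GC with 21 CpG. The RefSeq start of this Coil window lies downstream of the GENCODE start of the gene, 88970252, so the window falls inside the locus given below. Over all 32851 promoter windows of this length, 35.7% held a GC box, 37.4% a CCAAT box and 13.6% a TATA box, and the medians were 52.7% GC and 7 CpG. An interferon response element (GAAANNGAAA), held by 3.44% of windows, did not match in the windows of any of the 8 listed genes. These matches describe letters in a window and say nothing of factor binding.

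Among the SUMO genes, Sumo3 encodes a modifier that is joined into chains and is nearly identical to SUMO2. It lies on the forward strand of chromosome 10 at 77606097-77618331. Sumo3 had 586, 751 and 443 UMIs in shControl and 582, 589 and 407 in shLmna. After scaling, the levels were 230, 235 and 235 CPM against 218, 216 and 216 CPM, so that both groups were tight and did not overlap. The spread of 1.26% and 0.477% (coefficients of variation) was below the 4.11% and 4.36% that counting of independent UMIs would give. The log2 fold change was -0.10 (SE 0.13, 95% interval -0.38 to 0.17), and this error comes from a fit that shares information on spread between genes.

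Pias1 encodes an E3 ligase that promotes the attachment of SUMO to its substrates, PML among them. Its locus is 62878368-62987924 of chromosome 9, reverse strand. Pias1 had 26, 29 and 29 UMIs in shControl and 26, 29 and 21 in shLmna, with scaled levels of 9.07 to 15.4 CPM and 9.74 to 11.2 CPM. The shLmna range lay wholly inside the shControl range. The log2 fold change was -0.10 with a 95% interval of -0.71 to 0.50 (SE 0.28).

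Senp1 encodes a protease that matures SUMO precursors and takes SUMO off its targets. It lies on the reverse strand of chromosome 15 at 98038744-98093744. Senp1 had 19, 31 and 23 UMIs in shControl and 32, 24 and 15 in shLmna, and the libraries of both groups were intermixed. The log2 fold change was 0.01 with a 95% interval of -0.62 to 0.64 (SE 0.29), and no difference was detectable at this depth.

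Coil lies on the forward strand of chromosome 11 at 88970252-88991613. Coil had 159, 230 and 113 UMIs in shControl and 108, 141 and 87 in shLmna. The levels were 62.4, 71.9 and 60.0 CPM against 40.5, 51.8 and 46.3 CPM, so the groups were separate, with a gap of 12.6% of the shControl mean, against 1.06% for Daxx and 5.02% for Sumo3. The log2 fold change was -0.49 (SE 0.17, 95% interval -0.85 to -0.13). Coil was not called, and it was called lower only when shControl replicate 3 was left out, at -0.55.

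In the GENCODE transcript chosen for each of the 7 genes, the counted 3′ end overlapped no exon of another gene on either strand. No other gene's transcript shared a stretch of at least 100 bases at 95% identity with the last 1000 bases of these transcripts. Ends of their other annotated transcripts, of which Atrx has 27 in all, were not examined. The log2 values that the authors had normalised and batch-corrected gave the same order of groups for 6 of the 7 genes as the scaled counts. Pml differed, since its 3 shLmna libraries, at 6.14 to 6.17, were above the 3 shControl libraries, at 5.99 to 6.09. Atrx had 5.55 to 5.65 in shControl and 6.55 to 6.69 in shLmna, a difference of 1.02 on that compressed scale. Which batch had been removed is not given in the sources used here.

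Beyond the 7 genes, the wider SUMO pathway was read from a list of its other members. Of 22 listed modifiers and enzymes, 20 were tested, 2 were called higher and none lower (0 lower at an unadjusted p under 0.05 by edgeR, and 0 called lower by DESeq2), with a median log2 fold change of 0.02 beside 0.003 over all tested genes. The 10% of these genes that were called stood beside 13.7% of all tested genes. Ranbp2, which encodes a nucleoporin of the cytoplasmic pore filaments with SUMO E3 ligase activity, had 4, 2 and 0 UMIs in shControl and 41, 59 and 50 in shLmna. The groups were as far apart as those of Atrx, at 6 against 150 UMIs in all, a ratio of 26.2 with a counting interval of 11.8 to 72.6. Its log2 fold change was 4.66 (SE 0.48, adjusted p = 2.4e-05, edgeR quasi-likelihood, Benjamini-Hochberg), and like Atrx it depends on the prior count. As for Atrx, this SE understates the error, and DESeq2 gave an SE of 0.70. Ranbp2 also passed the filter on low counts only through the shLmna libraries, so its adjusted p is that of a gene kept for its high group. Senp2, a protease found at the nuclear pore, was at 9.26 ± 2.46 CPM (SD, n = 3) in shControl and 18.1 ± 1.56 CPM (SD, n = 3) in shLmna, with no overlap and a log2 fold change of 0.95 (SE 0.26, adjusted p = 0.025 by the same test). The call of Senp2 was lost with DESeq2, at 0.96, and without shControl replicate 1 (0.75), shLmna replicate 1 (0.86) or shLmna replicate 3 (0.97).

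The other relatives of Pias1 and Senp1 did not pass the test. Pias2, Pias3 and Pias4, ligases related to Pias1, had log2 fold changes of 0.22, 0.43 and 0.05, and the groups of Pias3 did not overlap (shLmna above). The counted end of Pias3 overlaps exons of Nudt17 on the opposite strand. Among the proteases, Senp3, Senp5 and Senp6 had log2 fold changes of -0.40, -0.14 and -0.35. With the correction for GC content described below Senp6 was called lower, at -0.70, and without shControl replicate 3 Senp3 was, at -0.59. Senp7, which trims SUMO2/3 chains, had 0.34 (95% interval -0.53 to 1.20).

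**Figure D2:**
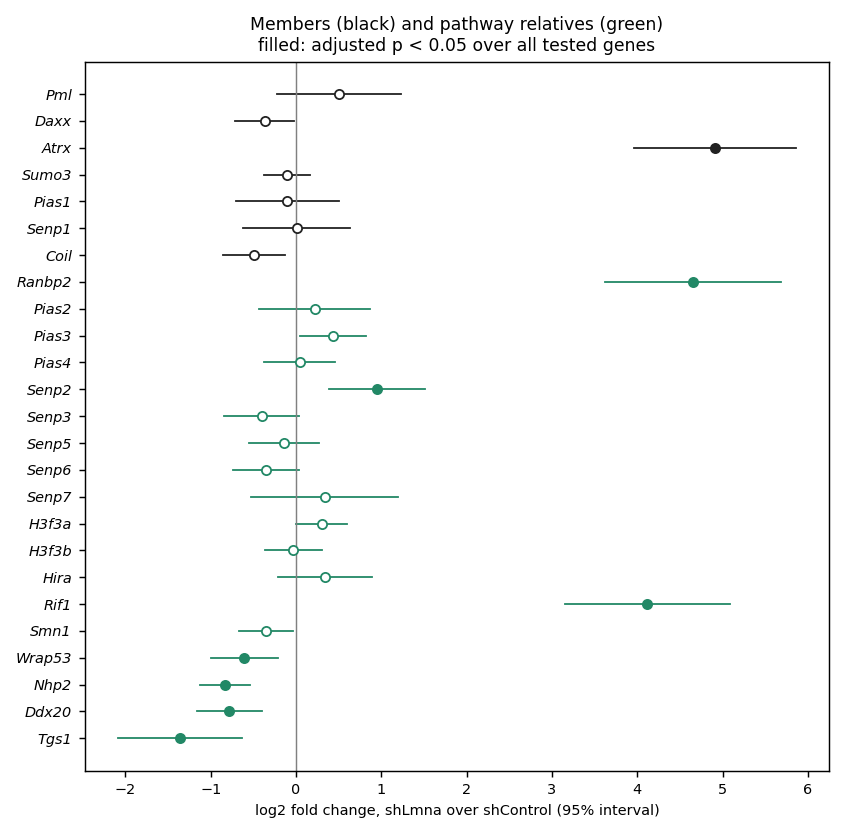
Log2 fold change, shLmna over shControl (horizontal axis), with its 95% interval (lines) for the 7 genes of the set (black) and named genes of their pathways (green), and filled symbols for genes called at an adjusted p under 0.05. Atrx at 4.91, Ranbp2 at 4.66 and Rif1 at 4.12 lay apart from the others, which were between -1.36 and 0.95. The intervals of Atrx, Ranbp2 and Rif1 are narrower than their counting intervals and understate the error.

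Of 17 listed PML body partners, 10 were tested and none was called (0 also with DESeq2), beside 13.7% of all tested genes. At an unadjusted p under 0.05 edgeR gave 1 higher and 1 lower. The median log2 fold change was -0.21. These genes fall outside the naming rule and were chosen after their values were seen, as the only ones at that unadjusted level. Rb1, which encodes the retinoblastoma protein, had 5, 5 and 5 UMIs in shControl and 14, 14 and 8 in shLmna (log2 fold change 1.29, adjusted p = 0.053, edgeR quasi-likelihood, Benjamini-Hochberg). Isg20, an interferon-induced exonuclease, had -0.72 (adjusted p = 0.051, same test), with no overlap between groups. Sp100, a main companion of PML in the bodies, is not analysed here.

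For the chaperone's own pathway, 15 of 18 listed genes of H3.3 deposition and silencing were tested, 1 was called higher and none lower (0 lower at an unadjusted p under 0.05, and 0 with DESeq2). The 6.67% that were called stood beside 13.7% of all tested genes, and the median log2 fold change was 0.08. H3f3a and H3f3b, the genes of the H3.3 histone that ATRX-DAXX deposits, were at 127 ± 4.96 and 328 ± 50.1 CPM (SD, n = 3) in shControl and at 156 ± 13.4 and 320 ± 49.0 CPM (SD, n = 3) in shLmna. The H3f3a groups did not overlap but missed the threshold (log2 fold change 0.30, 95% interval 0.002 to 0.60), and those of H3f3b overlapped (-0.03, 95% interval -0.37 to 0.30), although H3f3b was called lower, at -0.57, with the correction for GC content. Hira, of the chaperone that places H3.3 in active chromatin, had a log2 fold change of 0.34 (95% interval -0.21 to 0.90). Its counted end overlaps exons of Gm28539 on the same strand, so its UMIs may not be its own alone. Rif1, a telomere-associated protein that times DNA replication, had 3, 3 and 1 UMIs in shControl and 28, 54 and 38 in shLmna. Its shControl counts were as low as those of Atrx, with 7 against 120 UMIs in all, a ratio of 17.99 (counting interval 8.47 to 45.7) and a fitted log2 fold change of 4.12 (SE 0.45, adjusted p = 3.6e-05, edgeR quasi-likelihood, Benjamini-Hochberg). It too passed the filter only through the shLmna libraries, and the same limit holds for its adjusted p. Its SE also understates the error, and DESeq2 gave an SE of 0.68.

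**Figure D3:**
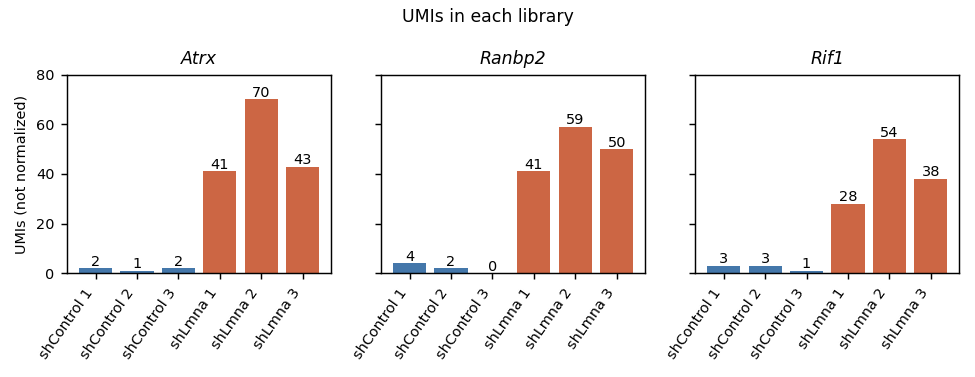
UMIs, not normalized, in each of the 6 libraries for Atrx, Ranbp2 and Rif1, with bars starting at 0 and the count printed above each bar. In all 3 genes the shControl libraries held 0 to 4 UMIs and the shLmna libraries 28 to 70, and shLmna replicate 2 was the highest.

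The base composition of the transcript end moved with these values. GC content over the last 1000 transcript bases was 32.8% for Atrx, 34.1% for Ranbp2 and 29.5% for Rif1, against 36.1% for Pias1 and 44.4% to 51.8% for the 5 other genes of the set. Among tested genes with an end of 30% to 35% GC, 24.3% of 428 were called higher and 1.17% lower, with a median log2 fold change of 0.42, while of 1896 genes with 45% to 50% GC 5.17% were called higher and 6.54% lower. With the fit corrected for GC content, the log2 fold change of Atrx was 4.29, of Ranbp2 4.11 and of Rif1 3.302. The part of base composition in these differences was not tested further. All 3 are also long transcripts, with 10275, 9608 and 8509 bases against a median of 2845. Of 34 tested genes with at least 8000 bases and an end under 35% GC, 6 (17.6%) were called higher. The median log2 fold change of the 34 was 0.21. Atrx, Ranbp2 and Rif1 are themselves among the 34 and among the 6 called, so neither value is independent of them. Of all 354 tested genes with at least 8000 bases, 6.5% were called higher and 5.08% lower. In the SUMO, PML body, H3.3 and Cajal body lists, 9 tested genes had ends under 35% GC. Of these, Ranbp2 and Rif1 were called, and the other 7, Pias2, Senp7, Rnf111, Morc3, Rb1, Casp8ap2 and H3f3b, had log2 fold changes of -0.27 to 1.29.

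**Figure D4:**
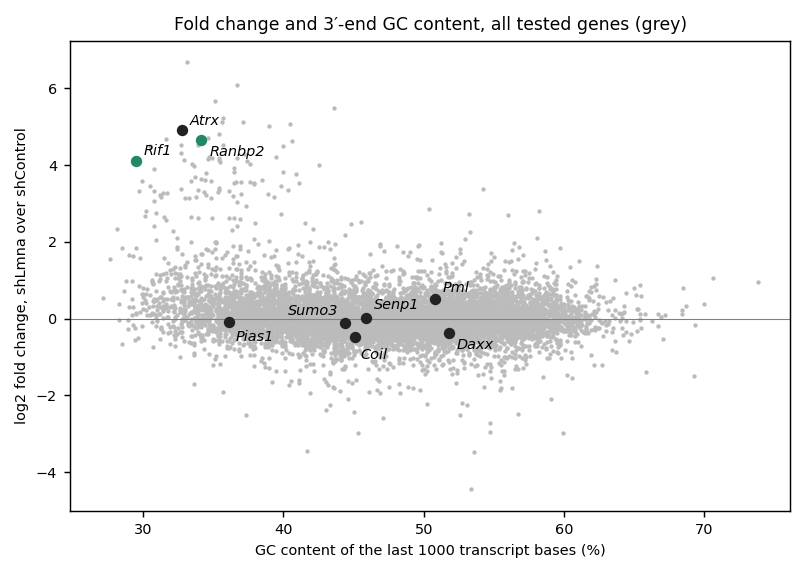
GC content of the last 1000 transcript bases (horizontal axis, percent) against log2 fold change, shLmna over shControl, for all tested genes with an annotated end (grey), the 7 genes of the set (black) and Ranbp2 and Rif1 (green). Atrx, Ranbp2 and Rif1 lay between 29.5% and 34.1% GC with log2 fold changes of 4.12 to 4.91, while Pias1 at 36.1% GC was at -0.10.

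Genes of the Cajal body and of small nuclear ribonucleoprotein assembly, the surroundings of coilin, were more often lower than higher in shLmna. Of 28 listed, 27 were tested, 5 were called lower and none higher (0 higher at an unadjusted p under 0.05, and 0 with DESeq2). The 18.5% of these genes that were called stood beside 13.7% of all tested genes, of which 5.78% were called lower. The count called lower fell to 1 without shControl replicate 1, and to 2 without shControl replicate 2 or shLmna replicate 2. Of the 27 log2 fold changes 18 were negative, beside 4448 of all 8969, and the median was -0.29. Tgs1, which trimethylates the cap of small nuclear RNAs, had 42, 48 and 16 UMIs in shControl and 13, 11 and 14 in shLmna (log2 fold change -1.36, SE 0.34, adjusted p = 0.016, edgeR quasi-likelihood, Benjamini-Hochberg). This call was lost without shControl replicate 1 (-1.20) or 2 (-1.26) or shLmna replicate 1 (-1.30) or 2 (-1.17). Nhp2, a protein of H/ACA ribonucleoproteins, was at 870 ± 82.4 CPM in shControl and 490 ± 41.2 CPM in shLmna (SD, n = 3), a log2 fold change of -0.83 (SE 0.14, adjusted p = 0.0012, same test). Its counted end overlaps exons of Rmnd5b on the opposite strand, and whether the counting used strand is not given in the sources used here. Ddx20, a helicase of the SMN complex, fell from 93.9 ± 20.1 to 54.9 ± 5.85 CPM (SD, n = 3; log2 fold change -0.78, SE 0.18, adjusted p = 0.0097, same test), a call lost without shControl replicate 1 (-0.61). Wrap53, which directs RNAs and telomerase to Cajal bodies, fell from 46.6 ± 2.75 to 30.6 ± 5.41 CPM (SD, n = 3; log2 fold change -0.60, SE 0.19, adjusted p = 0.043, same test), a call lost with DESeq2 (-0.60), without the filter on low counts (-0.61), and without shControl replicate 1 (-0.63) or 2 (-0.56) or shLmna replicate 2 (-0.50) or 3 (-0.56). Smn1, whose product binds coilin, was lower in all 3 shLmna libraries, at 666, 566 and 553 CPM against 503, 391 and 510 CPM, and did not pass the test (log2 fold change -0.35, 95% interval -0.66 to -0.03).

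Pml and Daxx are known to respond to interferon, and the interferon-induced genes were therefore read beside them. Of 15 listed, 12 were tested, 2 were called lower and none higher (1 higher at an unadjusted p under 0.05, and 0 with DESeq2). The 16.7% that were called stood beside 13.7% of all tested genes, and the median log2 fold change was -0.19. Isg15, a ubiquitin-like modifier, fell from 125 ± 7.89 to 64.0 ± 20.5 CPM (SD, n = 3; log2 fold change -0.95, SE 0.20, adjusted p = 0.0060, edgeR quasi-likelihood, Benjamini-Hochberg). Parp14, an ADP-ribosyltransferase, had 23, 38 and 27 UMIs in shControl and 13, 16 and 5 in shLmna (log2 fold change -1.32, SE 0.34, adjusted p = 0.019, same test), a call lost without shControl replicate 2 (-1.31), shLmna replicate 1 (-1.38) or shLmna replicate 3 (-1.10).

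**Figure D5:**
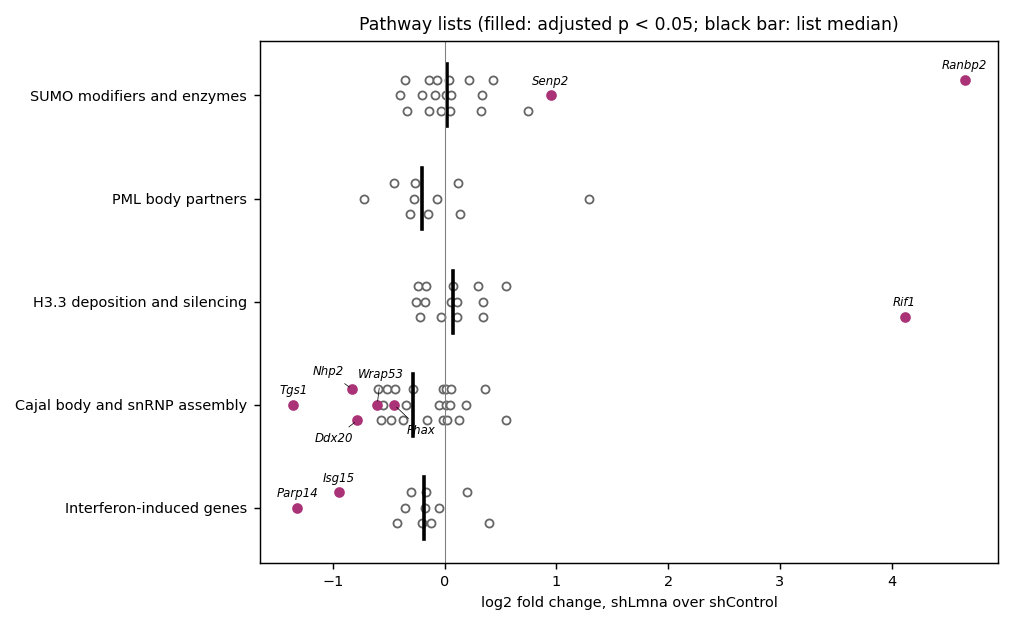
Log2 fold change, shLmna over shControl, of every tested gene in 5 pathway lists, with filled symbols for genes called at an adjusted p under 0.05 and a black bar at each list's median. The medians were 0.02, -0.21, 0.08, -0.29 and -0.19 from top to bottom, the 3 called genes of the SUMO and H3.3 lists lay to the right, and the 7 called genes of the Cajal body and interferon lists lay to the left.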

How the data were processed

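Per the labels and the study's methods, RNA of E0771 cells was sequenced by MARS-seq. The authors trimmed reads with Cutadapt, mapped them to mm10 with STAR 2.4.2a and counted UMIs with a modified HTSeq-count in a window from 1000 bases before to 100 bases past the 3′ end of RefSeq genes, and deposited them as unnormalised counts. The authors' deposited log2 values, batch-corrected with ComBat, were used only to describe the genes of the set. The authors' DESeq2 table, with their mean signal, fold changes and p-values, was not used.

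Counts were analysed here in R 4.3.3 with edgeR 4.0.16 (filterByExpr with a minimum count of 10, TMM, quasi-likelihood test, Benjamini-Hochberg adjustment over 8969 genes, no replicate block). DESeq2 1.42.0 with its size factors, RLE and upper-quartile scaling, no filter, a mean count of at least 50, a replicate block, a GC correction (loess, span 0.3, degree 2, per library) and leaving out each library were alternatives. Scripts were tested on simulated data. Transcripts and GC content came from GENCODE M21, matched for 10468 of 10520 genes (323 by an older symbol), and promoters from RefSeq. Replicate pairs had chi-square values of 5.52 to 9.02 per degree of freedom, above sampling noise. Counting intervals cover counting error only. Each edgeR SE is the absolute log2 fold change divided by the square root of the F statistic.

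The genes of the set, the pathway lists and the alternatives were chosen with earlier results of these data known. Named are all genes of the set, Lmna, of each pathway list up to 4 called genes with the largest absolute log2 fold change, close relatives of the set whatever their values, and genes overlapping a named gene's counted end. Results of 3 further listed genes are not reported here, and the list counts leave them out.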

Additional observations from a re-analysis of the deposited data

How the results depend on the processing

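Across 8 alternatives to the processing, Atrx, where it was tested, kept its call, with log2 fold changes of 4.29 to 5.00, and 4.47 to 5.21 with each library left out. These fits reuse the same 6 libraries. All 40 tested genes with such low shControl counts were called higher in the main fit, so the kept call adds no support. Atrx was not tested at a mean count of at least 50. By construction that filter also removes Pml, Pias1 and Senp1, and it left 0 genes of the set called higher. Daxx stayed between -0.49 and -0.26 and Sumo3 between -0.13 and -0.053, without a call. Senp1 turned to -0.0048 with DESeq2 and to between -0.21 and 0.16 with a library left out, Pias1 ranged from -0.27 to 0.12 with a library left out and was -0.47 with the GC correction and -0.46 with the GC correction and replicate block, Pml ranged from 0.27 to 0.80 with a library left out and from 0.49 to 0.55 otherwise, and Coil from -0.59 to -0.41, called lower without shControl replicate 3, so that 0 to 1 genes of the set were called lower.

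Deviations of libraries with the same replicate number correlated at 0.352 for replicate 1, -0.115 for replicate 2 and 0.00519 for replicate 3. A pairing common to all 3 replicates was thus not seen. With the replicate block the log2 fold change of Atrx was 4.91 and 1 PML body partner was called lower, as also with RLE scaling. With the GC correction, alone and with the replicate block, Pias2 turned to -0.43 and -0.46, Pias4 to -0.0085 and -0.0058 and Senp7 to -0.43 and -0.45, and in both fits 1 SUMO gene, 1 PML body partner and 1 H3.3 gene were called lower. With DESeq2, 1 SUMO gene was called higher and 3 Cajal body genes lower. At a mean count of at least 50, 425 genes were called higher, 112 higher and 46 lower by the study's criteria, and 0 SUMO genes and 0 H3.3 genes higher and 1 interferon-induced gene lower.

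With a library left out, 353 to 882 genes were called higher and 187 to 698 lower (714 and 518 with all), or 254 to 462 and 92 to 192 by the study's criteria, the lowest without shControl replicate 2 and the highest without shControl replicate 3. By list, 1 to 2 SUMO genes were called higher and 0 to 1 lower, 0 to 1 PML body partners lower, 0 to 1 Cajal body genes higher and 1 to 6 lower, and 1 to 2 interferon-induced genes lower. Signs also turned with a library left out for Pias2 (-0.077 to 0.43), Pias4 (-0.13 to 0.20), Senp7 (-0.047 to 0.55) and H3f3b (-0.13 to 0.087). The calls of Tgs1, Parp14, Senp2 and Wrap53 held in 2, 3, 3 and 2 of those 6 fits. The cause was not tested. Depth limits Pml, Pias1, Senp1 and the control level of Atrx most.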
